A study of Mus musculus with 157 samples.

Results

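Messenger RNA levels of 9 genes of the T cell receptor pathway were followed through sorted thymocyte stages, non-tumoral thymus and thymic lymphomas of the mouse. They were chosen by symbol as kinases, adaptors and downstream effectors of this receptor, with a costimulatory and an inhibitory partner. Each of the 9 matched 1 Ensembl identifier among the 50686 genes of each deposited count table, and each was detected in every library. They are the kinases Lck, Zap70 and Prkcq, the adaptors Lat and Lcp2, the transcription factors Nfatc1 and Nfatc3, and the surface receptors Cd28 and Cd5.

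When the T cell receptor binds its ligand, the Src family kinase Lck, carried by the CD4 and CD8 coreceptors, phosphorylates the CD3 and zeta chains, and the kinase Zap70 docks there. Zap70 phosphorylates the membrane adaptor Lat and the cytosolic adaptor encoded by Lcp2, on which phospholipase C gamma is assembled. Its products release calcium, which activates NFAT factors through calcineurin, and diacylglycerol, which recruits protein kinase C theta (the product of Prkcq). In the thymus this machinery reads the pre-T cell receptor in double negative (DN) cells and the mature receptor in cells that carry both CD4 and CD8 (double positive, DP). Cd28 encodes a costimulatory receptor and Cd5 a receptor that dampens the signal.

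The series compared mice labelled Cdc20(+/D), its control genotype, with mice labelled Cdc20(D/AAA), its aneuploid genotype. Cdc20 is the activator of the anaphase-promoting complex. Every sorted library and every thymus library also carried the prefix RERT2. The labels do not say what this prefix or the letter D stands for, nor the age of any animal. An earlier run of 81 libraries held sorted RERT2-Cdc20(+/D) cells with 6 libraries of DN1, 8 of DN2, 8 of DN3, 8 of DN4 and 7 of DP. The sorted RERT2-Cdc20(D/AAA) libraries numbered 9 for DN1, 1 for DN2, 5 for DN3, 6 for DN4 and 11 for DP. Of the RERT2-Cdc20(D/AAA) early tumours, 5 had been sorted as DP and 7 had no sort named. A later run of 76 libraries held unsorted tissue. Its non-tumoral thymus groups were RERT2-Cdc20(+/D) (6), RERT2-Cdc20(D/AAA) (9), and both genotypes with MYCChr6 (2 and 3). Its lymphomas were RERT2-Cdc20(D/AAA) alone (22), with p53(+/D) (10) or with MYCChr6 (3), LCK-Cdc20(D/AAA); MYCChr6 (14), LCK-Cdc20(+/D); MYCChr6 (4), CD4-Cdc20(D/AAA); MYCChr6 (2) and p53(-/-) (1). The labels do not say which libraries came from separate animals, so p-values measure only the spread between these libraries. Replicate numbers here only name the libraries of a group in the order of their listing and tie none across groups.

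Total counts ranged from 21199 to 11595463 per library in the earlier run and from 1708619 to 8009572 in the later one. The shallowest library was DN1 D/AAA replicate 8. A single gene, CT010467.1, took 0.223% to 2.68% of counts in the earlier run and 30.1% to 55.95% in the later one, so levels were never compared across the runs. In the earlier run all 37 +/D libraries lay in a first block of 56 library numbers, and the other 25 were all D/AAA. The cut after 56 was chosen for this report by library number and not taken from a label. Totals reached 11595463 counts in the first block and 5373182 in the second. Stage markers followed the sort labels at most stages: the coreceptor gene Cd4 was at 1586 to 2123 CPM (counts scaled to the library total) in +/D DP cells and at most 51.8 CPM in +/D DN cells. The 4 DN3 markers were all higher at DN2 than at DN1 in +/D cells, and 0 of them differed between DN2 and DN3, so they did not separate those 2 labels. The DN1 libraries stood apart. Their 9 markers of natural killer (NK) and innate-like T cells summed to 4170 to 5921 CPM in +/D, against 252 to 592 CPM at DN2, and their 6 B cell markers summed to 3616 to 5806 CPM. At DN2 the B cell sum was 390 to 10036 CPM, the highest being +/D DN2 replicate 8. Leaving that library out changed no call below from DN1 to DN2 or from DN2 to DN3. The later steps were not refitted without it. Fewer cells of a type and less RNA per cell cannot be told apart in bulk libraries.

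The upstream sequences of Lck, Zap70 and Cd5 are shown because these genes followed the 3 main patterns below: a step up from DN1 to DN2, a fall to DN2 with a slow return, and the widest range across stages. Each is the 250 bases before a RefSeq transcription start (GRCm38.p6), 5′ to 3′ on the gene's strand. Capitals mark matches on either strand to GGAAGT (core of ETS family sites), TGTGGT (core of RUNX sites) and CAGNTG (an E-box form, with N any base). Lck has 2 starts, and its proximal window lies inside the annotated gene.
Lck distal start, chr4:129573642-129573891, minus strand: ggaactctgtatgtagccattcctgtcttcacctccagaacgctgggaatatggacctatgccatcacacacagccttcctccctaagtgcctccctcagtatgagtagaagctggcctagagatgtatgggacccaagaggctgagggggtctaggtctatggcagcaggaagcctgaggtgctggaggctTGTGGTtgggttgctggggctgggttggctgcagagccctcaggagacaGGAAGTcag
Lck proximal start, chr4:129558373-129558622, minus strand: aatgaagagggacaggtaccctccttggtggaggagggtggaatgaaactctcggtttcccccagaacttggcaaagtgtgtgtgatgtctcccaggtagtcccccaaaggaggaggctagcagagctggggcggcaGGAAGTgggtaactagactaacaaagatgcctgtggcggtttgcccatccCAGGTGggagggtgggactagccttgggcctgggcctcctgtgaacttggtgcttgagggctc
Zap70, chr1:36761548-36761797, plus strand: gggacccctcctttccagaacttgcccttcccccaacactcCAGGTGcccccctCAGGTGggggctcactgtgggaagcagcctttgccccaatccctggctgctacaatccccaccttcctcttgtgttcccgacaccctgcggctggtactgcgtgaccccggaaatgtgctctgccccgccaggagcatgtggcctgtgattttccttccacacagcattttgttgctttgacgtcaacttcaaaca
Cd5, chr19:10738975-10739224, minus strand: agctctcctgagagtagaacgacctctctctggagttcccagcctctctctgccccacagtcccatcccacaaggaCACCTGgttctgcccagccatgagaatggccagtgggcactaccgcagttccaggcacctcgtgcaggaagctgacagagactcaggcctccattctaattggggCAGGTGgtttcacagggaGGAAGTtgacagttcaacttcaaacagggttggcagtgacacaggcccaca

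No GENCODE exon of the same gene overlapped the distal Lck window or the Zap70 window. In the proximal Lck window 19 bases, and in the Cd5 window 28 bases, lay in an exon of that gene. Exons of other genes were not looked up. The distal Lck window held 1 match to the ETS core and 1 to the RUNX core, and the proximal window 1 ETS core and 1 E-box. Of 3 windows for Zap70 the one shown adjoins the annotated start of the gene and had 2 E-boxes, and Cd5 had 1 ETS core and 2 E-boxes. Of all 32851 promoter windows of this length in the RefSeq table, 19.74% held the ETS core, 14.05% the RUNX core and 44.82% the E-box. Among the 11 windows of the 7 members with an entry in that table, 6 held the ETS core, 2 the RUNX core and 6 the E-box. A match describes the letters only. No entry was found for Nfatc1 and Cd28.

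Between DN1 and DN2 of +/D mice, Lck and Lat rose while the other 7 genes fell. In the edgeR quasi-likelihood fit of all +/D sorted libraries, with Benjamini-Hochberg adjustment over 15278 genes, all 9 passed an adjusted p of 0.05, where 48.5% of all genes passed in either direction, 24.6% higher and 23.9% lower at DN2. Their median log2 fold change was -1.40, against 0.00 for all genes. Lck (ENSMUSG00000000409, chr4:129548344-129573641) had a lowest, median and highest level of 1404, 1737 and 1815 CPM at DN1 and 2061, 2693 and 3388 CPM at DN2. The ranges did not overlap, and the log2 fold change was 0.68 ± 0.10 (SE, n = 8 and 6; edgeR adjusted p = 2.01e-07). Lat (ENSMUSG00000030742, chr7:126363824-126369570), the membrane scaffold, went from 248, 390 and 408 CPM to 485, 714 and 844 CPM, again without overlap (log2 fold change 0.98 ± 0.13, edgeR adjusted p = 7.77e-08).

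Zap70, Cd28 and Cd5 showed the largest falls among the 9 at this step. Zap70 (ENSMUSG00000026117, chr1:36761798-36782818) had a lowest, median and highest level of 136, 174 and 202 CPM at DN1 and 20.5, 27.7 and 41.3 CPM at DN2, a 5.81-fold difference (log2 fold change -2.54 ± 0.14, edgeR adjusted p = 5.39e-18). Cd28 (ENSMUSG00000026012, chr1:60716800-60773359) fell 7.03-fold, from 138 ± 27.5 CPM (SD, n = 6) to 19.7 ± 5.28 CPM (n = 8). Cd5 (ENSMUSG00000024669, chr19:10717116-10739002) fell 7.99-fold, from 121 ± 35.6 to 15.4 ± 5.17 CPM. None of these 3 genes had overlapping ranges. Prkcq (ENSMUSG00000026778, chr2:11172108-11301222) fell 3.52-fold and Nfatc1 (ENSMUSG00000033016) 2.64-fold, both without overlap. Nfatc3 (ENSMUSG00000031902, chr8:106058840-106130537) fell 1.93-fold and Lcp2 (ENSMUSG00000002699, chr11:34046920-34092295) 1.42-fold, with overlapping ranges. The NK and innate-like markers moved with these 7 genes: all 9 of them were lower at DN2, as were 5 of 6 B cell, 6 of 6 tested myeloid and 5 of 5 dendritic cell markers. Of the 6 T lineage markers, 3 were higher and 2 lower at DN2. Their part in the result was not tested.

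Most of the wider pathway also fell at this step: of 93 tested genes in 7 lists of pathway members that exclude the 9, 58 were lower and 9 higher at DN2. Costimulatory and inhibitory receptors had 8 of 10 lower, led by the costimulator Cd226 (65.5 CPM at DN1 and 0.112 CPM at DN2), the adhesion receptor Cd2 (log2 fold change -6.56 ± 0.29) and the costimulator Icos (-6.19 ± 0.72). The inhibitory receptor Ctla4 was the 1 higher gene of that list, at 0.358 CPM at DN1 and 21.4 ± 22.2 CPM at DN2 (5.82 ± 1.07, edgeR adjusted p = 2.01e-05). Genes induced by receptor signalling had 9 of 11 lower and 0 higher, and proximal kinases and phosphatases 8 of 11 lower. The pre-T cell receptor chain Ptcra was higher at DN2 (2.498 ± 3.77 CPM at DN1 and 324 ± 169 CPM at DN2), as was the thymocyte signalling protein Themis (log2 fold change 3.66 ± 0.32).

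**Figure D1:**
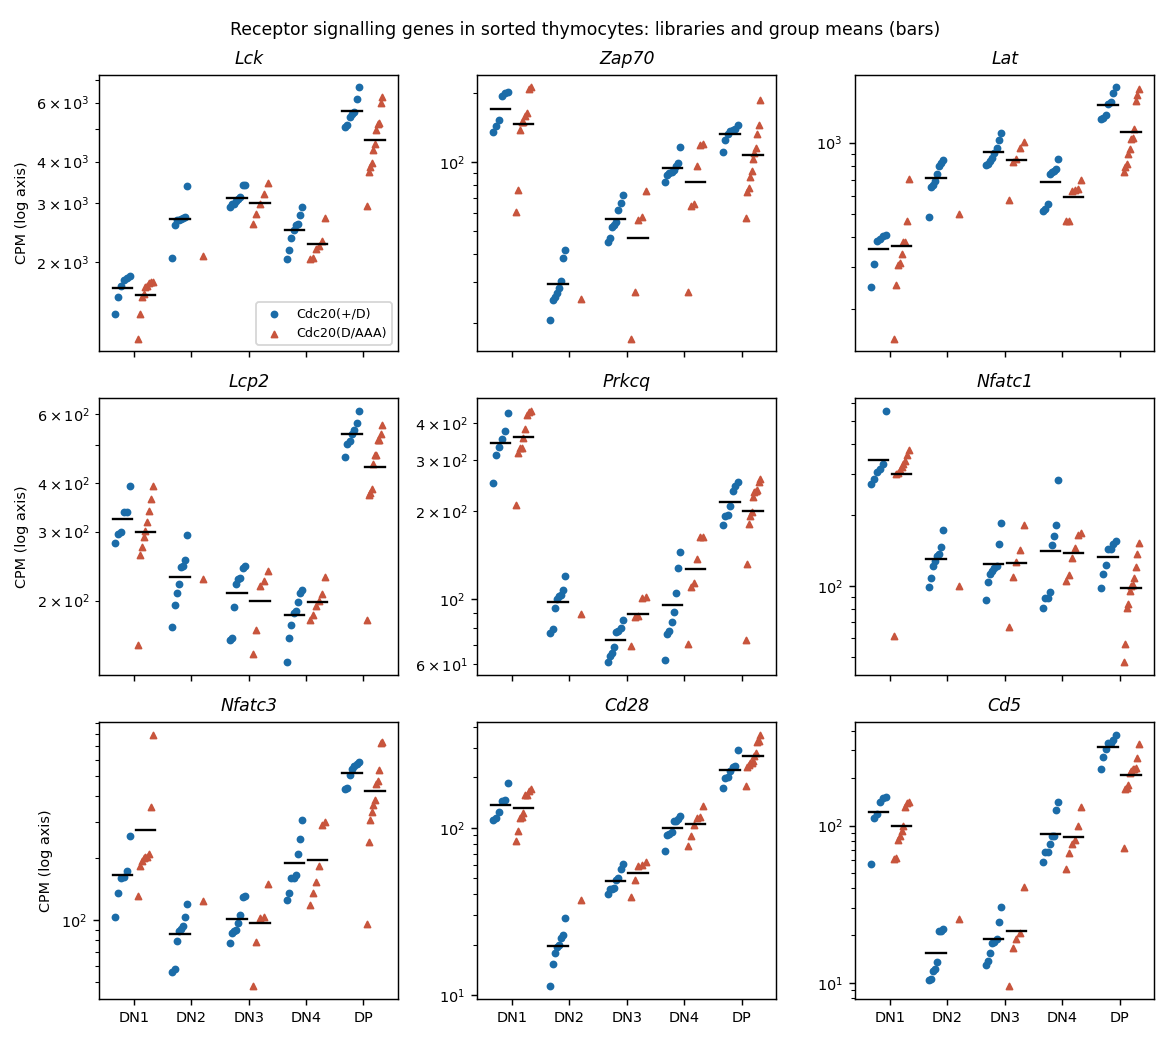
Level of each of the 9 genes (CPM, log axis) in every sorted library by stage, with circles for Cdc20(+/D), triangles for Cdc20(D/AAA) and bars for group means. Lck and Lat were lowest at DN1, while Zap70, Cd28 and Cd5 were lowest at DN2 in +/D libraries, and DN2 has 1 D/AAA library.

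From DN2 to DN3, 2 of the 9 genes rose, Zap70 and Cd28, where 4.35% of all genes passed in either direction and 1.2% were higher. Zap70 reached 45.1, 54.2 and 72.3 CPM (lowest, median and highest of 8) and Cd28 40.0, 45.9 and 60.7 CPM. Each DN3 library lay above every DN2 library for both genes (log2 fold changes 0.95 ± 0.13 and 1.31 ± 0.15, edgeR adjusted p = 3.7e-06 and 1.28e-07). The remaining 7 had log2 fold changes between -0.42 (Prkcq, adjusted p = 0.0718) and 0.38 (Lat, adjusted p = 0.0642) with overlapping ranges. Limma voom called 5, adding Lck, Lat and Prkcq, and 5.24% of all genes. Of the pathway lists, 6 genes were higher and 7 lower of 93. The receptor-induced genes Nab2 (log2 fold change 2.505 ± 0.50) and Nr4a1 (1.81 ± 0.40), a corepressor and a nuclear receptor, were among the higher ones. Markers of other cells and stages also fell at this step: 4 of 5 mature thymocyte, 3 of 6 B cell, 3 of 9 NK and innate-like, 2 of 6 gamma delta T cell and 2 of 5 dendritic cell markers were lower at DN3, and 0 of these lists had a higher gene. Their part in the result was not tested.

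At the step from DN3 to DN4, which follows pre-T cell receptor signalling in textbook accounts, Cd5, Cd28, Nfatc3 and Zap70 rose and Lck and Lat fell. These 6 compare with 15% of all genes called, 7.47% higher and 7.53% lower. Cd5 had 13.03, 18.1 and 30.5 CPM at DN3 and 58.2, 80.8 and 141 CPM at DN4 (lowest, median, highest, n = 8 each), with no overlap. Its log2 fold change of 2.15 ± 0.21 (edgeR adjusted p = 8.46e-10) was the largest of the 9. Cd28 rose from 48.2 ± 7.38 to 99.7 ± 15.4 CPM and Zap70 from 56.7 ± 9.52 to 94.6 ± 10.4 CPM, also without overlap. Nfatc3 rose by 0.84 ± 0.17 on the log2 scale, and its ranges met, with 125 CPM as the lowest DN4 value and 132 CPM as the highest DN3 value.

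The decreases at this step were small. Lck fell by 0.38 on the log2 scale (SE 0.09, edgeR adjusted p = 0.00169), from 3125 ± 187 to 2498 ± 291 CPM, and all 8 DN4 libraries lay below the DN3 median. Lat fell by 0.47 (SE 0.12, edgeR adjusted p = 0.00479), from 912 ± 106 to 686 ± 132 CPM. Lcp2, Prkcq and Nfatc1 had log2 fold changes of -0.26, 0.34 and 0.11 that missed the threshold. Across the pathway lists 29 genes were higher and 16 lower of 93. Of the 11 tested genes induced by receptor signalling, 7 were higher and 1 lower, and of 10 costimulatory and inhibitory receptors 7 were higher and 1 lower. The coreceptor chains Cd8a (log2 fold change 4.48 ± 0.36) and Cd8b1 (4.55 ± 0.35) rose, and Ptcra (-1.97 ± 0.34) and the inhibitory receptor Ctla4 (-2.71 ± 0.78) fell. The inhibitory receptor Tigit also passed as higher, from 0.0145 CPM to 2.99 CPM. DN4 libraries also had red cell markers at 118 to 3179.9 CPM, against at most 5.44 CPM at DN3. At DN4, 4 of 6 B cell and 4 of 9 NK and innate-like markers were higher. Mature thymocyte markers were split, with 3 of 5 higher and 2 lower, as were gamma delta T cell markers, with 3 of 6 lower and 1 higher. Of the 6 T lineage markers, 4 were lower and 1 higher at DN4. Their part in the result was not tested.

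In DP cells of +/D mice 8 of the 9 genes rose over DN4, and all but Nfatc1 passed, where 49.5% of all genes passed and 24.5% were higher at DP. The median log2 fold change of the 9 was 1.26, against 0.01 for all genes. Lck had 2049.5, 2542 and 2922 CPM at DN4 and 5076, 5547 and 6679 CPM at DP (lowest, median, highest), a 2.42-fold rise (log2 fold change 1.28 ± 0.09, n = 7 and 8, edgeR adjusted p = 1.24e-14). Lat rose 2.25-fold, to 1442 ± 177 CPM. Lcp2, the partner adaptor, rose 3.12-fold, from 183 ± 24.99 to 534 ± 47.0 CPM (edgeR adjusted p = 3.49e-15). DP libraries were above all DN4 libraries for these 3 genes.

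Among the effectors, Nfatc3 rose 2.95-fold, from 188 ± 61.5 to 519 ± 62.7 CPM, and Prkcq 2.40-fold, from 96.0 ± 28.2 to 215 ± 28.3 CPM. Nfatc1, the other NFAT factor here, had 80.8, 121 and 281 CPM at DN4 and 98.2, 143 and 156 CPM at DP, with the DP range inside that of DN4 (log2 fold change 0.01 ± 0.20, 95% interval -0.39 to 0.41, edgeR adjusted p = 0.977). Cd5 rose 3.81-fold, to 315 ± 50.7 CPM, and Cd28 2.38-fold, to 221 ± 37.9 CPM, both without overlap. Zap70 rose 1.501-fold, to 133 ± 11.3 CPM, and its ranges overlapped slightly. In the pathway lists 53 genes were higher and 10 lower of 93, with 16 of 20 adaptors and exchange factors higher and 1 lower. Checkpoint receptors were among the lower genes: Pdcd1 had a log2 fold change of -3.85 ± 0.45 and Btla -3.29 ± 0.81. The order of mean Cd5 levels across +/D stages was DP, DN1, DN4, DN3 and DN2, and neither DN1 and DN4 nor DN3 and DN2 differed by more than the larger SD. Other markers moved at this step as well: all 5 tested red cell markers were lower at DP (summed to at most 11.5 CPM), as were 6 of 6 gamma delta T cell, 4 of 6 B cell, 5 of 9 NK and innate-like and 4 of 5 mature thymocyte markers. Among the mature thymocyte markers 1 was higher. Myeloid markers were higher, 4 of 6 tested, and the 8 of the list summed to at most 79.4 CPM. All 6 T lineage markers were also higher at DP. Their part in the result was not tested.

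**Figure D2:**
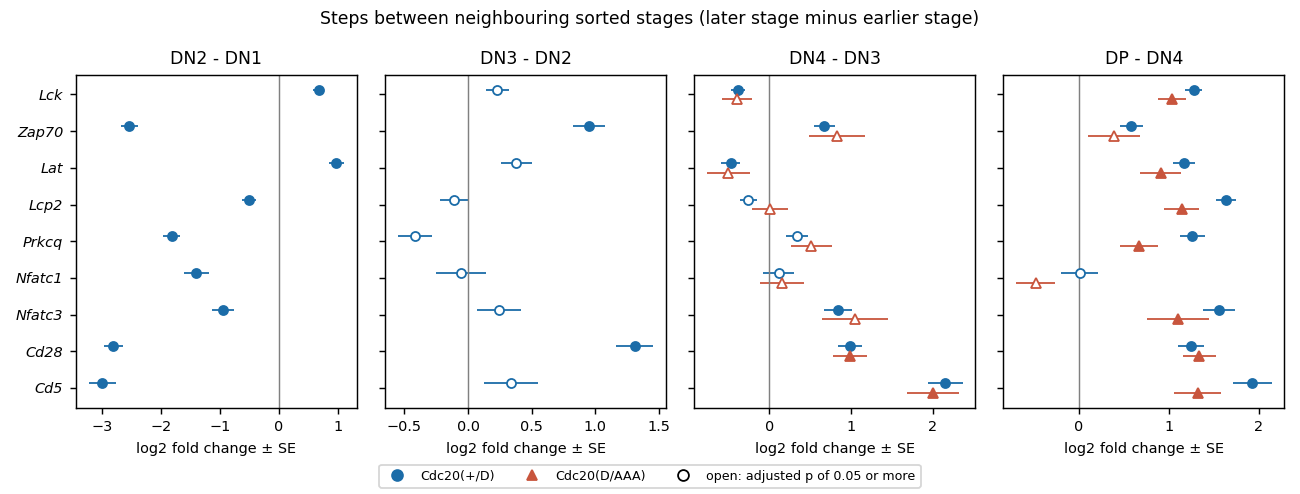
Log2 fold change (later stage minus earlier stage) with its SE for each gene and step, circles for Cdc20(+/D) and triangles for Cdc20(D/AAA), filled where the adjusted p was under 0.05. For the step from DN4 to DP the points of all genes but Nfatc1 lie right of 0 in both genotypes, with 8 called in +/D and 7 in D/AAA.

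The same steps in D/AAA cells gave 2 calls from DN3 to DN4, with 6 and 5 libraries, and 7 from DN4 to DP, with 11 and 6. From DN3 to DN4, Cd28 (log2 fold change 0.99 ± 0.21) and Cd5 (2.01 ± 0.32) rose, 2 of the 9 genes, where 3.16% of all genes passed and 2% were higher. Cd5 was 9.51, 16.6, 18.9, 20.8 and 40.5 CPM in the 5 DN3 libraries and 52.7 to 130 CPM in the 6 DN4 libraries, without overlap. Red cell markers summed to 1824 to 37083 CPM in these DN4 libraries and at most 8.33 CPM at DN3. Their part was not tested. From DN4 to DP, 7 rose: Lck, Lat, Lcp2, Prkcq, Nfatc3, Cd28 and Cd5 (29.4% of all genes passed, 14.2% higher), with log2 fold changes between 0.67 ± 0.21 (Prkcq) and 1.34 ± 0.18 (Cd28). Zap70 (0.39 ± 0.29, edgeR adjusted p = 0.323) and Nfatc1 (-0.48 ± 0.22, edgeR adjusted p = 0.0956) did not pass. Within the second block of library numbers, with 6 DP and 2 DN4 libraries, 3 were called, without Lck, Lat, Prkcq and Nfatc3, and 6.22% of all genes passed. All 6 red cell markers were lower at DP, as were 5 of 6 gamma delta T cell, 4 of 6 B cell, 4 of 5 mature thymocyte and 3 of 9 NK and innate-like markers. Among the NK and innate-like markers 1 was higher. Of the 6 T lineage markers, 3 were higher and 0 lower. Their part in the result was not tested.

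No difference between the genotypes passed at any stage for the 9 genes. edgeR called 0 at DN1, DN3, DN4 and DP, where 0%, 0%, 0.0081% and 0.00803% of all genes were called, and DESeq2 and limma voom also called 0. At an unadjusted p of 0.05 the counts were 0, 1, 1 and 2 of 9. Over all genes they were 353 of 12822 at DN1 and 549 of 12912 at DN3. At DP the count was 1142 of 12304 in the fit without D/AAA replicate 1. That fit left out a library that the 2 of 9 at DP included. No count over all genes is given for DN4. DN1 D/AAA replicate 8, at 21199 counts, gives coarse values. The difference nearest the threshold was that of Cd5 in DP cells. Its lowest, median and highest levels were 228, 335 and 378 CPM in +/D and 72.2, 223 and 331 CPM in D/AAA, and all 11 D/AAA libraries lay below the +/D median (log2 fold change -0.54 ± 0.19, 95% interval -0.92 to -0.17, edgeR adjusted p = 0.34). Cd28 was the 1 gene with a positive value in DP cells (0.32 ± 0.15), with 10 of 11 D/AAA libraries above the +/D median. DP D/AAA replicate 1 was the lowest of its group for Lck (2942 CPM), Zap70 (57.5), Lcp2 (179), Prkcq (72.9), Nfatc1 (47.3), Nfatc3 (95.4) and Cd5 (72.2), had the highest NK and innate-like marker sum there (767 CPM, against 30.0 to 191 CPM) and had a chromosome 15 score of 0.781 (mean log2 difference from +/D DP). DP D/AAA replicate 5, with a score of 0.569, had the highest Zap70 (187 CPM) and Nfatc1 (152 CPM) of that group. Its Lck was 5213 CPM and its Cd5 269 CPM. An F-test of whether the genotype difference depended on stage called 0 of the 9 and 0.134% of all genes, and the unadjusted p of Cd5 was 0.152.

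In early tumours sorted as DP, each of the 9 genes had a lower mean than in non-tumoral D/AAA DP cells, but edgeR called 0 of them and 0% of all genes. DESeq2 called 1 of the 9 and 7.01% of all genes, limma voom 4 and 17.4%, and 3 of the 9 had an unadjusted p under 0.05. In the edgeR fit without DP D/AAA replicate 1, 3824 of 12132 genes had an unadjusted p under 0.05. That fit left out a library that the 3 of 9 included. Cd5 was 224, 61.2, 8.49, 70.3 and 74.3 CPM in replicates 1 to 5, against 72.2 to 331 CPM (median 223) in the 11 DP libraries. Replicate 1 sat at the DP median, replicates 2, 3 and 4 below every DP library and replicate 5 just above the lowest (log2 fold change -1.27 ± 0.46, edgeR adjusted p = 0.127). Lcp2 was 538, 236, 153, 232 and 257 CPM, with replicate 1 high in the DP range of 179 to 562 CPM, replicate 3 below it and the others in its lower part (log2 fold change -0.65 ± 0.28, adjusted p = 0.181). Lck was 5981, 3518, 2191, 3121 and 2872 CPM (-0.40 ± 0.24, adjusted p = 0.329). All 5 tumours lay in the second block of library numbers, with 6 of the 11 DP libraries. Lck was 3733 to 4957 CPM in those 6, and 2942 to 6236 CPM in the 5 DP libraries of the first block. In an edgeR fit of the second block alone, 6.45% of all genes passed. The part of the block in the result was not tested.

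These values moved with single libraries and with markers of NK and innate-like T cells. The coreceptor gene Cd4 was at 121 to 1186 CPM and Cd8a at 690.1 to 2957 CPM over the 5 tumours, and the NK and innate-like T cell sum was 60.1, 496, 2029, 566 and 457 CPM in replicates 1 to 5, of which Gzma made up most of the mean (701 CPM) and Ncr1 and Eomes were at 0. Replicate 3, with the highest NK and innate-like sum, was lowest for Lck, Zap70, Lcp2, Prkcq, Nfatc3, Cd28 (46.2 CPM) and Cd5. Their part in the result was not tested. Without tumour replicate 1, edgeR called 2 of the 9 members, Lcp2 and Cd5, both lower, and 12.3% of all genes. Without DP D/AAA replicate 1 it called 3 members, Lcp2, Nfatc1 and Cd5, all lower, and 15.4% of all genes.

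Early tumours with no sort named differed from D/AAA DP cells in 7 of the 9 genes, where 29.1% of all genes passed, 15.9% higher and 13.2% lower. The DP libraries are the same as in the comparison above, so both share their controls. All 7 of these tumours also lay in the second block of library numbers, with 6 of the 11 DP libraries. In an edgeR fit of that block alone, 24.7% of all genes passed. Lck, Lat, Lcp2, Nfatc3, Cd28 and Cd5 were lower and Nfatc1 higher. Lck was 1090, 1647 and 2540 CPM (lowest, median, highest of 7) against 2942, 4527 and 6236 CPM in DP cells, and Lat 192, 257 and 689 CPM against 749.7, 1035 and 1684 CPM, both without overlap (log2 fold changes -1.36 ± 0.21 and -1.63 ± 0.28). Nfatc1 was 102, 211 and 335 CPM against 47.3, 100.4 and 152 CPM, and all 7 tumours lay above the DP median (1.04 ± 0.24, edgeR adjusted p = 0.00241). Cd5 had a log2 fold change of -1.62 ± 0.31, Nfatc3 of -1.20 ± 0.31, Cd28 of -1.01 ± 0.26 and Lcp2 of -0.62 ± 0.21. Zap70 (-0.54 ± 0.27) and Prkcq (0.64 ± 0.30) did not pass. Prkcq was 567, 90.5, 120, 345, 318, 385 and 360 CPM in replicates 1 to 7.

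The coreceptor genes Cd4, Cd8a and Cd8b1 were low in these libraries, at group means of 9.85, 16.9 and 30.4 CPM. The NK and innate-like T cell sum was 8881, 395, 459, 7334, 3613, 7475 and 7882 CPM in replicates 1 to 7, and replicates 2 and 3, the low ones, were also the lowest for Prkcq and Nfatc1 (102 and 143 CPM) and the highest for Lck and Lat. The other 5 lay far above the DP libraries (30.0 to 767 CPM) and around the median of D/AAA DN1 cells (6210.3 CPM), and 5 of 6 tested NK and innate-like and 5 of 6 gamma delta T cell markers were higher than in DP cells. So were 4 of 5 tested B cell, 3 of 3 tested red cell and 3 of 5 mature thymocyte markers. Of the 6 T lineage markers, 3 were lower and 1 higher. The part of these markers in the result was not tested. Without replicates 2 and 3, Prkcq also passed (log2 fold change 0.89, edgeR adjusted p = 0.00339). Without the library highest in globin, Lcp2 did not (adjusted p = 0.0514). In the pathway lists 22 genes were higher and 21 lower of 90.

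**Figure D3:**
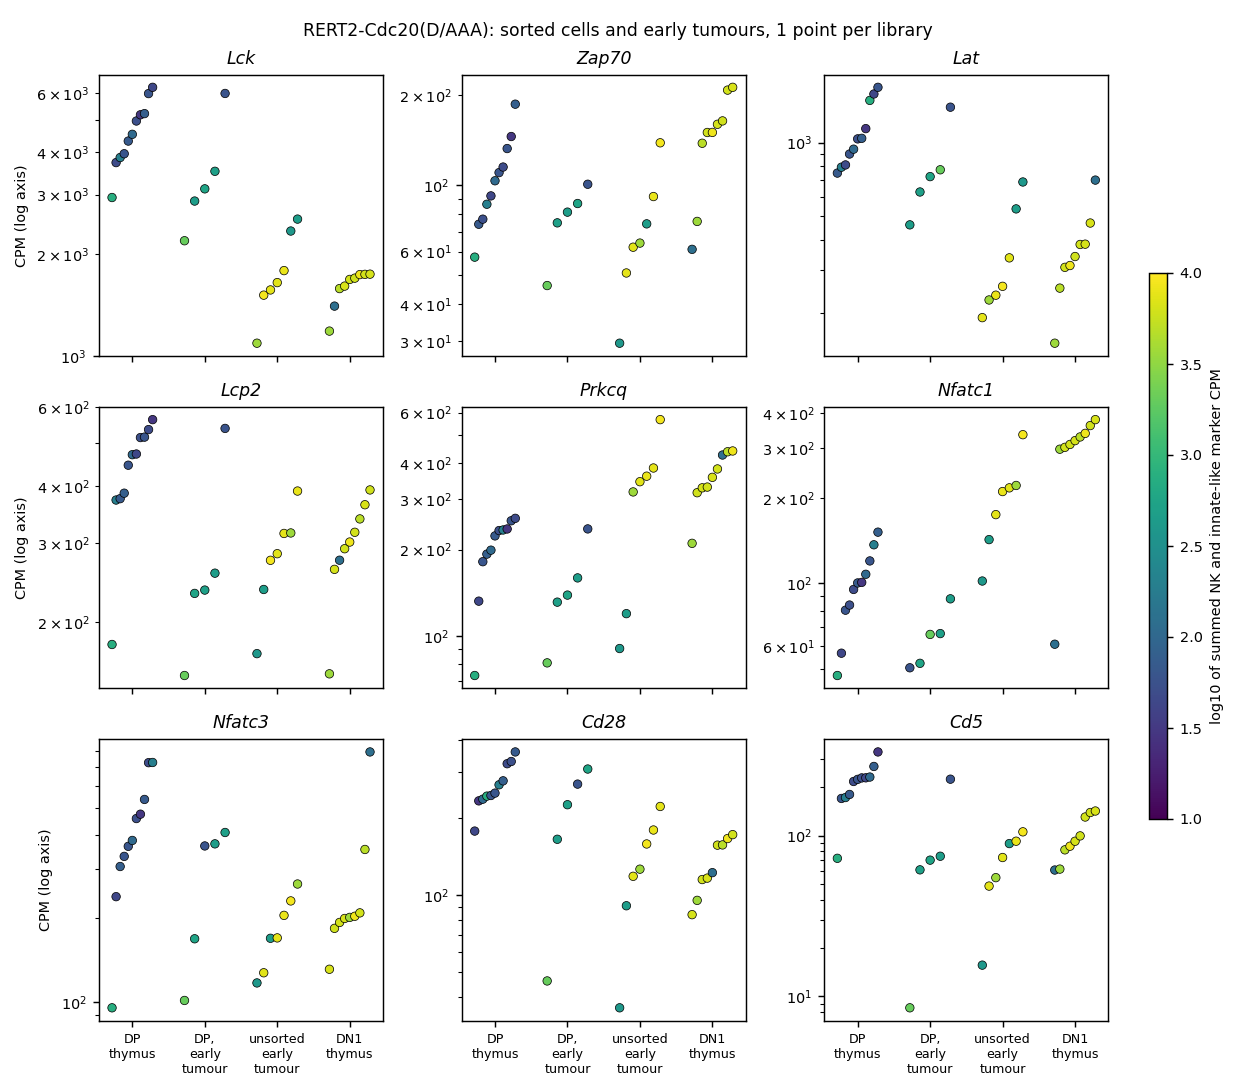
Level of each gene (CPM, log axis) in every RERT2-Cdc20(D/AAA) library of DP cells, early tumours sorted as DP, unsorted early tumours and DN1 cells, ordered by level within a group and coloured by the log10 of the summed NK and innate-like marker CPM. Among unsorted tumours the 2 libraries with low sums were lowest for Prkcq and Nfatc1 and highest for Lck and Lat.

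Whole thymus of the 2 genotypes gave no call. All 9 genes had lower means in D/AAA than in +/D thymus, with log2 fold changes between -0.44 and -0.05, and edgeR called 0 of the 9 and 0% of all genes. DESeq2 and limma voom called 0 as well. Lcp2 was 385, 434 and 481 CPM in +/D and 148, 323 and 425 CPM in D/AAA (lowest, median, highest), with 0 of 9 D/AAA libraries above the +/D median (log2 fold change -0.44 ± 0.20, edgeR adjusted p = 0.594). D/AAA replicate 7 was the lowest for Lck, Lcp2, Prkcq, Nfatc1, Nfatc3, Cd28 and Cd5, and was 1 of 3 with a chromosome 15 gain by its score. Cd4 ranged from 6.43 to 673 CPM in D/AAA and from 456 to 598 CPM in +/D thymus.

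In RERT2-Cdc20(D/AAA) lymphomas 7 of the 9 genes fell against D/AAA thymus, while Zap70 and Lat did not pass. Of all genes 34.9% passed and 16.8% were lower, and the median log2 fold change was -1.33 for the 9 against 0.04 for all genes. Cd5 was 31.2, 140.0 and 213 CPM in the 9 thymus libraries and 0.138, 22.5 and 90.8 CPM in the 22 tumours (log2 fold change -2.31 ± 0.45, edgeR adjusted p = 0.000238). No tumour reached the thymus median of Cd5. The lowest, replicate 21, stood apart, and the next lowest had 2.20 CPM. Prkcq was 46.8, 76.3 and 101 CPM in thymus and 7.37, 25.3 and 49.1 CPM in tumours, with the highest tumour just above the lowest thymus library (-1.58 ± 0.22, edgeR adjusted p = 2.71e-06). Lcp2 (315 ± 104 to 117 ± 34.4 CPM), Nfatc3 (523 ± 184 to 204 ± 63.9 CPM), Cd28 (63.1 ± 24.1 to 25.6 ± 16.8 CPM) and Nfatc1 (218 ± 61.7 to 101 ± 37.8 CPM) fell 2.20-fold to 2.74-fold.

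The proximal kinases and the membrane adaptor moved less. Lck fell 1.37-fold, from 648, 807 and 1077 CPM to 452, 595 and 844 CPM (log2 fold change -0.45 ± 0.09, edgeR adjusted p = 0.000286). Lat was 549, 624.9 and 828.75 CPM in thymus and 384, 534 and 826 CPM in tumours (-0.30 ± 0.13, edgeR adjusted p = 0.0725), and passed in DESeq2 and limma voom. Zap70 was 163, 202 and 260 CPM in thymus and 118, 220 and 294 CPM in tumours, which span the thymus range (0.01 ± 0.14, 95% interval -0.26 to 0.28, adjusted p = 0.96). In the pathway lists 53 genes were lower and 2 higher of 90. The lower ones were 7 of 8 tested costimulatory and inhibitory receptors, 8 of 11 receptor-induced genes, such as Egr2 (22.9 CPM in thymus and 0.926 CPM in tumours), and 11 of 20 adaptors and exchange factors. Of the markers, 5 of 6 T lineage and 3 of 5 mature thymocyte genes were lower in tumours, with a T lineage sum of 2635 to 6143 CPM against 4223 to 6082 CPM. The coreceptor gene Cd4 had a mean of 141 CPM in tumours and 395 CPM in thymus. Of other cells, 4 of 5 tested B cell, 5 of 5 tested red cell and 2 of 5 tested NK and innate-like markers were lower, with a red cell sum of 6.63 to 1411 CPM in tumours and 19.3 to 1988 CPM in thymus. Their part was not tested.

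Within the 22 tumours, 36 pairs of the 9 genes were compared by Pearson correlation of log2(CPM + 1), with a permutation test of 100000 resamples. After Benjamini-Hochberg adjustment 0 pairs passed. Cd28 and Cd5 had r = 0.583 (permutation p = 0.00494, adjusted p = 0.0889, Spearman's rho = 0.533 with permutation p = 0.0118, n = 22). Their r was 0.652 without the 2 tumours farthest from the Cd28 median, which kept replicate 21, the lowest for Cd5. Lck and Lat had r = 0.582 (permutation p = 0.00464, adjusted p = 0.0889, rho = 0.557 with permutation p = 0.00795), falling to 0.401 without the 2 farthest from the Lck median.

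Lymphomas that also carried p53(+/D) gave 0 calls among the 9 against those without it, where 1.29% of all genes passed. These 22 lymphomas also serve as the reference for MYCChr6 below. Lck was nearest: 536, 774 and 1003 CPM in the 10 tumours, with 8 of 10 above the median of 595 CPM in the others (log2 fold change 0.34 ± 0.09, edgeR adjusted p = 0.0569). It was the 1 member called by DESeq2 and by limma voom, which called 3.06% and 4.08% of all genes. The p53(-/-) tumour, without a replicate, had 1272 CPM of Lck, above every other tumour in the run, and 41.0 CPM of Cd5.

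Lymphomas of RERT2-Cdc20(D/AAA); MYCChr6 mice differed from RERT2-Cdc20(D/AAA) lymphomas in 4 of the 9 genes, where 9.23% of all genes passed, 5.65% higher and 3.57% lower. Lat was 231, 214 and 156 CPM in the 3 tumours, below all 22 others (384 to 826 CPM; log2 fold change -1.41 ± 0.24, edgeR adjusted p = 0.000241). Lck was 543, 280 and 187 CPM and Nfatc3 104, 88.5 and 122 CPM, each below the median of the others (-0.83 ± 0.20 and -0.94 ± 0.29). Lcp2 was the 1 member that rose, at 255, 180 and 189 CPM against a median of 113 CPM (0.85 ± 0.23, edgeR adjusted p = 0.0153). Zap70 was 342, 209.5 and 242 CPM (0.33 ± 0.22, adjusted p = 0.399).

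With 3 libraries these calls were fragile except that of Lat. Leaving out 1 MYCChr6 tumour at a time left 2 to 3 members called: Nfatc3 was lost each time and in limma voom, Lck without replicate 2 or 3, and Lcp2 without replicate 1. Without replicate 2, Nfatc1 passed as higher (log2 fold change 0.96 ± 0.30, edgeR adjusted p = 0.0492). Of all genes, 6.79%, 7.15% and 4.58% passed without replicates 1, 2 and 3. The T lineage sum was 1355 to 2435 CPM in these 3 tumours, below the 2635 to 6143 CPM of the others, with 3 of 6 T lineage markers lower, 5 of 6 B cell markers higher and 3 of 4 DN3 markers lower. Their part was not tested. In the pathway lists 11 genes were higher and 4 lower of 93. Ptcra had 0.135 CPM against 67.5 CPM, and the adaptor gene Pag1 (log2 fold change -2.34 ± 0.45) and the zeta chain gene Cd247 (-1.27 ± 0.33) fell. The inhibitory receptor Lag3 rose (4.48 ± 0.91).

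The driver and genotype labels of the MYCChr6 lymphomas gave no call among the 9. LCK-Cdc20(D/AAA); MYCChr6 tumours against the RERT2 ones, and against LCK-Cdc20(+/D); MYCChr6 tumours, gave 0 calls among the 9 in edgeR, DESeq2 and limma voom, where edgeR called 0% of all genes in each, with 1 of 9 under an unadjusted p of 0.05 in each. In the fits without LCK D/AAA replicate 9, 738 of 13244 and 859 of 12706 genes were under that unadjusted p. The 1 of 9 in each comparison came from fits that included that library. The 14 LCK D/AAA tumours covered wide ranges, 55.8 to 571 CPM for Lck, 37.8 to 351 CPM for Nfatc1 and 4.03 to 179 CPM for Cd5. Replicate 9 was lowest for Lck, Zap70, Lat, Lcp2, Prkcq and Cd5, with the lowest T lineage sum (311 CPM) and the highest B cell sum (5666 CPM) of its group. Cd5 was 16.7, 136, 33.2 and 251 CPM in the 4 LCK +/D tumours, so even tumours of the same label differed 14.98-fold. The 2 CD4 tumours had 148 and 101 CPM of Cd5 and 424 and 278 CPM of Lck, and were not tested.

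**Figure D4:**
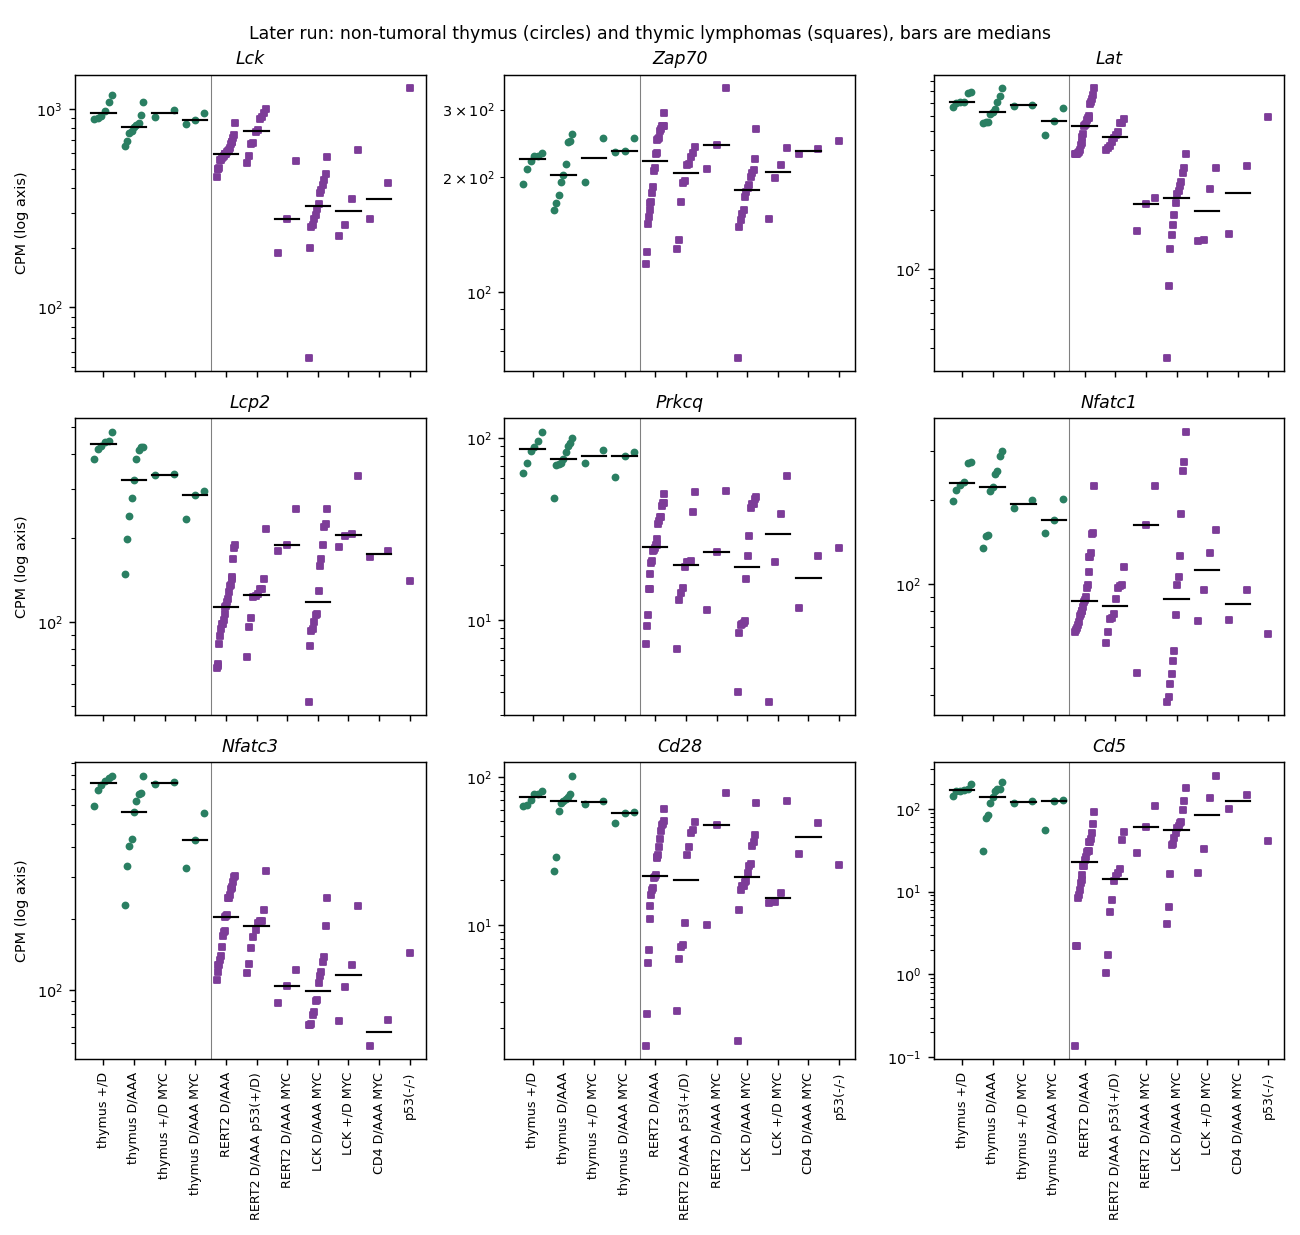
Level of each gene (CPM, log axis) in every library of the later run, with circles for non-tumoral thymus, squares for lymphomas, bars for group medians and a line between tissue and tumours. The Zap70 ranges of thymus and lymphomas overlap, while Cd5 and Cd28 ranged 658-fold and 40.0-fold among the 22 RERT2-Cdc20(D/AAA) lymphomas, and 41.3-fold and 24.2-fold without the lowest library of each gene (replicates 21 and 14).

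To set different genes side by side, levels were divided by the length of all annotated exons. This is a rough scale, since the transcript forms in use and the read coverage along them were not known. Per kilobase of exon, Lck had the highest mean of the 9 in every group. Its mean was 1932 CPM per kb in +/D DP cells, ahead of Lat (521), Lcp2 (120), Cd5 (64.0), Zap70 (44.4), Nfatc3 (44.2), Cd28 (36.1), Prkcq (30.4) and Nfatc1 (17.7). At +/D DN2 the lowest were Cd28 (3.2) and Cd5 (3.1), at a level per kb below Nfatc3 (7.3). In RERT2-Cdc20(D/AAA) lymphomas Lck (207) and Lat (194) were nearly level, with Zap70 (71.4) next. In the MYCChr6 lymphomas of the RERT2 line the mean of 3 libraries was higher for Zap70 (88.4) than for Lat (72.3).

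Over group means the genes did not vary as a single block. Across the 12 groups of the earlier run, Lck and Lat had r = 0.969, and the same pair had r = 0.956 over the 11 groups of the later run. Cd5 followed Nfatc3 (0.933) and Cd28 (0.907) in the earlier run, and in the later one Cd28 (0.883) more than Nfatc3 (0.413). Lck and Nfatc1 had r = -0.653 in the earlier run and 0.323 in the later. These are descriptions over groups that share runs and scaling. Among 11391 genes compared, the gene most like Lck in the earlier run was Hpcal1, a neuronal calcium sensor family member (r = 0.989 over 12 groups, 0.890 over the 11 later groups). For Lat it was Zfp408 (0.990 and 0.972), for Prkcq Atp6ap1 (0.994 and 0.509), for Nfatc3 the Ras activator Rasgrp1 (0.972 and 0.811), for Cd28 the lymphoid factor Ikzf1 (0.962 and 0.233) and for Cd5 the kinase gene Tnk2 (0.969 and 0.864). Zap70 was nearest Lrp10, with r = 0.971 in the earlier run and -0.220 in the later. The next gene for Lcp2 after Stard5 (0.978) was Vav1 (0.976), an exchange factor of the same pathway.

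Strand use in the counting is not given in the sources used here, so reads of overlapping genes could not be told apart. Esrp2, on the opposite strand at the Nfatc3 locus, reached a mean of 66.8 CPM in +/D DP cells, beside 519 CPM for Nfatc3. All other genes that overlap the 9 stayed at or below 7.04 CPM in every group mean.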

How the data were processed

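Bulk RNA-seq libraries of 157 samples were used. The authors deposited expected counts per gene, whole numbers in 2 tables, made with FastQC, STAR 2.5.3a and RSEM 1.3.0 on GRCm38 (mm10), per the submitters' processing notes. The strand setting and the annotation's release were not given in the sources used here. Symbols, positions and exon lengths came from GENCODE, upstream sequences from RefSeq.

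Levels are counts scaled to library totals (CPM) with TMM factors over each run. Tests used edgeR 4.0.16 (quasi-likelihood, robust, filterByExpr, TMM, R 4.3.3), with Benjamini-Hochberg adjustment over all genes tested and a threshold of 0.05. The +/D stages shared 1 fit, as did D/AAA DN1, DN3, DN4 and DP. Other comparisons used their 2 groups alone, and none crossed the runs. The SE is the log2 fold change over the square root of F. DESeq2 1.42.0 and limma 3.58.1 (voom), other scalings, filters, blocks and left-out libraries were alternatives. The scripts were tested on simulated data.

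Members and gene lists were chosen with earlier results of these data known. Besides the members, pathway genes named come from the 3 largest called changes in each direction of a comparison.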

Additional observations from a re-analysis of the deposited data

Results flagged for a closer look

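Among 126 pairs of a gene and a group of 4 to 10 libraries, in 14 groups, 8 had a library far from the others by Dixon's test at the 95% level. Chance marks about 1 in 20 groups. Lcp2 was 537.5 CPM in early tumour sorted DP replicate 1, against 152.6 to 257 CPM in the other 4. Nfatc1 was 553.8 CPM in +/D DN1 replicate 1, against 271.5 to 328.3 CPM in the other 5. In D/AAA DN1 replicate 8, the library with 21199 counts, Nfatc1 was 61.01 CPM (others 297.6 to 378.4 CPM) and Nfatc3 793.2 CPM (others 131.2 to 353.7 CPM).

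In the later run, LCK-Cdc20(+/D); MYCChr6 lymphomas had Lcp2 at 334.9 CPM in replicate 2 (others 185.5 to 207.5 CPM) and Cd28 at 68.39 CPM in replicate 4 (others 14.12 to 16.29 CPM). Among the p53(+/D) lymphomas, Lcp2 was 216 CPM in replicate 9 (others 74.85 to 142.4 CPM) and Nfatc3 316.4 CPM in replicate 2 (others 118.6 to 217.9 CPM).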

How the results depend on the processing

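Of 149 counts of called members under an alternative setting, 135 stayed within 1.5 times the reported count, and no log2 fold change of a called gene turned sign. From DN2 to DN3 of +/D cells limma voom called 5 members, against 2 (5.24% and 4.35% of all genes). In D/AAA cells, 1 member was called from DN3 to DN4 within the first block (1.57% of all genes), and 3 from DN4 to DP within the second (6.22%). For early tumours sorted as DP, with 0 members called, DESeq2 called 1 (7.01% of all genes), limma voom 4 (17.4%), 1 fit of all libraries 2 (6.97%), and the fit without chromosome 15 gains 1 (14.4%). Leaving out 1 library at a time gave 0 to 3, the highest without D/AAA DP replicate 1. For p53(+/D) lymphomas DESeq2, limma voom and the fit without shallow libraries each called 1 member, Lck, and 3.06%, 4.08% and 1.57% of all genes. For RERT2 MYCChr6 lymphomas 2 to 3 members were called with 1 library left out. The cause of these shifts was not tested. The fits within a block or with libraries left out also had fewer libraries. Among 207 group means, 26 were marked as moved without TMM factors. With CT010467.1 also left out of the totals, again without TMM factors, 94 were marked. A mean was marked if it moved by 1 SD or more, or by any amount in a group of 1 library. CT010467.1 took 30.1% to 55.95% of counts in the later run, so leaving it out raises levels there by itself. The alternatives that left out +/D DN2 replicate 8, D/AAA DP replicate 1, unsorted early tumours 2 and 3, or LCK-Cdc20(D/AAA); MYCChr6 replicate 9 were chosen after seeing the data. No paired analysis was possible because the labels give no replicate numbers and do not say which libraries share an animal. Sorted stages often follow each other in the library numbers, and whether such neighbours are paired was not tested.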

Other observations

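Thymus libraries with MYCChr6, which entered no test, had Lck at 908 and 991 CPM in the 2 +/D libraries and 842, 882 and 954 CPM in the 3 D/AAA libraries, within the range of thymus without MYCChr6. The single D/AAA DN2 library had 25.4 CPM of Zap70, 37.0 CPM of Cd28 and 25.4 CPM of Cd5, where the +/D DN2 medians were 27.7, 19.6 and 12.9 CPM. In the CD4-Cdc20(D/AAA); MYCChr6 lymphomas Nfatc3 was 75.6 and 58.7 CPM, the lowest group mean of that gene in the later run.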
